A study of Mus musculus with 9 samples.

Results

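The comparison set p53-null oligodendrocyte progenitor cells (OPCs) that express PDGF-BB and had been given an EZH2 inhibitor against p53-null OPCs without PDGF-BB. Its members are 6 of the 9 libraries of the series, taken by their labels: 3 libraries of group BB-p53n EZH2i and 3 of group p53n. All 9 libraries came from primary mouse OPC lines of genotype Trp53 -/-, kept in SATO medium with 10 ng/mL PDGF-AA. BB-p53n EZH2i cells received 5 µM tazemetostat for 48 h. The p53n libraries are labelled as controls, with no vehicle named. The third group, BB-p53n DMSO, is the same PDGF-BB line with the vehicle DMSO, and its values are given beside those of the other groups for a part of the genes. PDGF-BB and inhibitor therefore differ together between EZH2i and p53n, and their parts cannot be told apart from these 6 libraries alone. The labels do not describe how PDGF-BB was expressed, whether each line is a single clone, or whether libraries of a group are separate cultures, and the p-values therefore describe the spread among these libraries alone, which may be technical.

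OPCs are the dividing precursors of oligodendrocytes, the myelinating cells of the central nervous system. PDGF-AA, signalling through the receptor PDGFRA, keeps them dividing and immature, and PDGF-BB binds both PDGFRA and PDGFRB. EZH2 is the catalytic subunit of Polycomb repressive complex 2 (PRC2), which methylates lysine 27 of histone H3 and keeps many developmental genes silent; tazemetostat blocks its enzyme activity and does not act on its RNA.

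Total counts ranged from 19471768 to 34557109 per library, and from 20615 to 22301 genes had counts in EZH2i libraries against 24809 to 25619 in p53n. Mitochondrial genes took 4.46% to 5.76% of counts in p53n and 1.34% to 1.54% in EZH2i. Pdgfb, the manipulated gene, had 1 count over the p53n libraries, and its levels were 0.238, 0.213 and 0.143 CPM (TMM-scaled counts per library size) in EZH2i, beside 0.119, 0.237 and 0.123 CPM in DMSO. That is a ratio of 15.3 (95% interval 2.3 to 651, exact binomial on the counts), and whether the deposited Pdgfb counts include the introduced sequence is not given in the sources used here. Trp53 had 6.77, 8.33 and 6.94 CPM in p53n and 14.7, 13 and 15.2 CPM in EZH2i; the labels do not say which part of the gene was removed, so its level checks nothing. The groups also differed in sex-linked genes: Xist, the RNA that coats the inactive X chromosome, had 2777, 3064 and 3101 CPM in p53n 54.8, 46.2 and 65.0 CPM in DMSO and 6.38, 2.82 and 17.4 CPM in EZH2i. Y-linked Kdm5d had 0.278 to 0.925 CPM in p53n, 41.0 to 48.3 CPM in DMSO and 10.4 to 17.9 CPM in EZH2i. The labels give no sex and do not say that the PDGF-BB line was made from the cells of these p53n libraries, and any difference between the lines that goes with it cannot be told apart from PDGF-BB and inhibitor.

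Most genes differed between inhibited PDGF-BB cells and p53n cells. Of 17001 genes tested, 6857 (40.3%) were higher and 7082 (41.7%) lower in EZH2i by edgeR's quasi-likelihood test at an adjusted p of 0.05, the plain values. At least a 2-fold change was seen for 3753 of the higher and 4919 of the lower genes. The values of the 2 groups did not overlap for 13978 genes (82.2%). With so many genes called, a count within a gene list is read against these shares.

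The plain fold changes followed the composition of the transcripts. Over the 12786 genes whose average log2 CPM exceeded 1, higher GC content went with higher values (Spearman's rho 0.56) and longer exons with lower ones (−0.32), as a description across genes with no p. Median plain log2 fold change ran from −1.63 in the decile of genes with the lowest GC content to 1.01 in the decile with the highest. Library by library, the deviation in log2 CPM from the mean of all 9 libraries was set against GC content. Its rho was between −0.49 and −0.39 in the 6 p53n and DMSO libraries and between 0.61 and 0.68 in the 3 EZH2i libraries. The libraries share that mean, so the negative and the positive values are not independent. For DMSO against p53n the same rho of the fold change was 0.14. A second fit therefore removed the trend on GC content and exon length from each library, which gives the corrected values, and it could include 16652 genes. It left a rho of 0.01 with GC content and −0.02 with length, and decile medians near 0. What part of the trend comes from library preparation and what part from the cells was not tested. Log2 fold changes are therefore mostly given for both fits, plain first. CPM levels, count ratios and folds against a floor of counts are plain only.

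**Figure D1:**
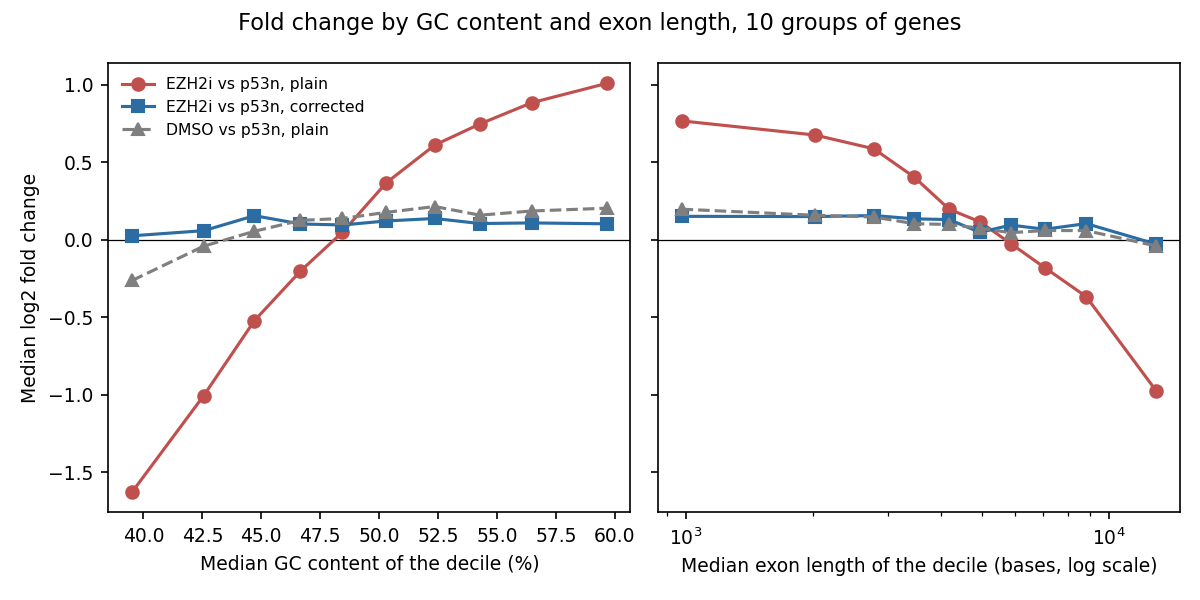
Median log2 fold change of genes in deciles of GC content (left, %) and of exon length (right, bases on a log scale), for EZH2i against p53n in the plain fit (circles) and the corrected fit (squares) and for DMSO against p53n in the plain fit (triangles). The plain EZH2i line climbs from −1.63 to 1.01 with GC content and the corrected line stays near 0.

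After correction 6427 genes (38.6%) were higher and 6634 (39.8%) lower. The direction was up in both fits for 4977 genes (29.9%) and down in both for 5118 (30.7%). A change of at least 2-fold in both fits was seen for 1977 of the former and 3063 of the latter. Of the 11385 genes called in both fits, 10095 had the same direction. Counts within a list are read against 38.6% and 39.8% in the corrected fit and against 29.9% and 30.7% in both fits. The 486 genes that were higher in the plain and lower in the corrected fit had a median GC content of 56.5% and a median exon length of 2882 bases. The 804 genes that went from lower to higher had 41.5% and 7526 bases. Examples among well measured genes were Jund, an AP-1 subunit, with log2 fold changes of 0.49 plain and −0.68 corrected, and the peptidase gene Tpp2, with −1.26 and 1.21. For such genes the direction depends on whether the trend is removed.

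**Figure D2:**
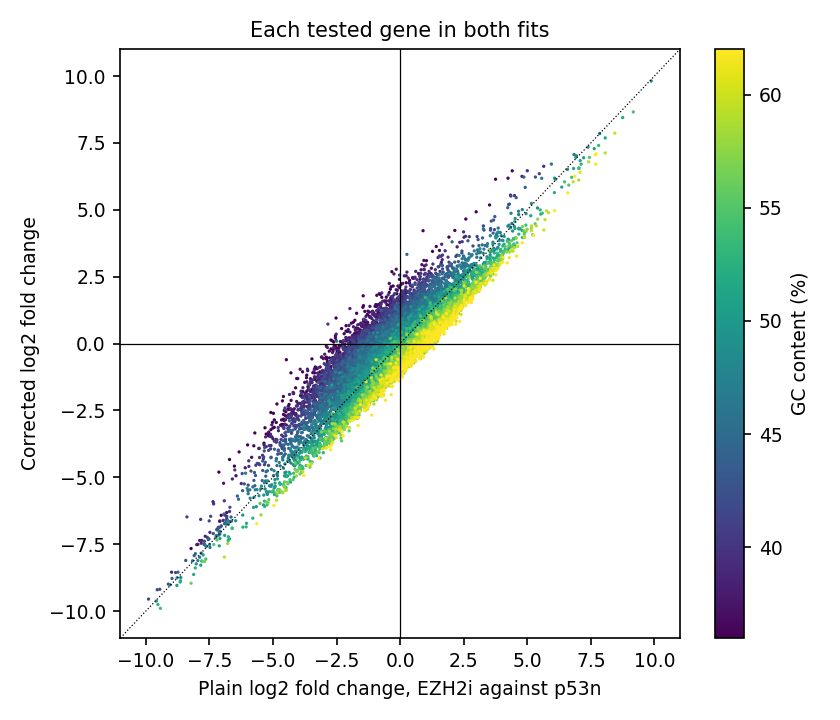
Each point is 1 tested gene, with its plain log2 fold change for EZH2i against p53n on the x axis, its corrected log2 fold change on the y axis and its GC content (%) as colour; the dotted line marks equal values. Points at the upper left and lower right of the origin, where calls include 804 and 486 genes that turned direction, are genes of low and of high GC content respectively.

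DNA replication genes were higher in inhibited PDGF-BB cells than in p53n cells. Of 34 listed S phase genes 32 were higher in the plain fit and all 34 in the corrected fit, with median log2 fold changes of 2.85 and 2.71 against −0.04 for all genes in either fit. The DMSO cells had medians of 2.31 plain and 2.24 corrected against p53n. Pola1, the catalytic subunit of DNA polymerase alpha, passed the test in the corrected fit only, with 1.496. The cyclin gene Ccne2 had 1.54 corrected and −0.38 plain, where it did not pass. It passed as lower without p53n library 2 (−0.51) or EZH2i library 1 (−0.59), and also under other scalings, DESeq2, other filters and a replicate block (−0.40 to −0.55). The comparison shares the p53n libraries with the DMSO comparison, so the 2 medians are not independent.

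The values of the 2 groups did not overlap for 32 of the 34 S phase genes, beside 82.2% of all genes. Mcm3, a subunit of the replicative helicase (chromosome 1, 20873192 to 20890536, GRCm39), had 37.0, 40.0 and 38.9 CPM in p53n, 329, 359 and 338 in DMSO and 527, 541 and 493 in EZH2i. Its log2 fold change for EZH2i against p53n was 3.75 ± 0.07 (SE) plain and 3.20 ± 0.06 corrected. Rrm2, a subunit of the enzyme that makes deoxynucleotides, went from 34.0, 35.2 and 34.5 CPM to 388, 377 and 344 CPM (3.42 and 3.64). Cdc6, which loads the helicase onto origins, went from 7.22, 9.20 and 9.84 CPM to 141, 169 and 136 CPM, with log2 fold changes of 4.09 and 4.00. Ccne1, the G1/S cyclin, rose by 1.73 plain and 1.08 corrected.

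Replication genes are classical targets of E2F transcription factors, so the 250 bases before their annotated starts were searched on both strands for 4 forms of the E2F motif, TTTCCCGC, TTTGGCGC, TTTCGCGC and TTTGCCGC. The windows came from RefSeq on GRCm38.p6. Of 27 listed S phase genes with a window, 8 (29.6%) held a match, against 583 of 27025 genes overall (2.16%) and 429 of 11299 tested genes (3.80%). The windows of Cdc6 and of the helicase genes Mcm5 and Mcm6 are shown because they hold matches in genes with large changes, 5′ to 3′ in the direction of transcription, with the matches in capitals. Mcm5 and Mcm6 were chosen after their values and windows were seen.
Mcm6, chr1:128359706-128359955, minus strand: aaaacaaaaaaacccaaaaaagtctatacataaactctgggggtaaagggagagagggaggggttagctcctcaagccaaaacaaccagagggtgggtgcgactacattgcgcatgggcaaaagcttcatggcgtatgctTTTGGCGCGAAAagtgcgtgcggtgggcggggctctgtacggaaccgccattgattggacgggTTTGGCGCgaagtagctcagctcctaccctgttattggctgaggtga
Cdc6, chr11:98907901-98908150, plus strand: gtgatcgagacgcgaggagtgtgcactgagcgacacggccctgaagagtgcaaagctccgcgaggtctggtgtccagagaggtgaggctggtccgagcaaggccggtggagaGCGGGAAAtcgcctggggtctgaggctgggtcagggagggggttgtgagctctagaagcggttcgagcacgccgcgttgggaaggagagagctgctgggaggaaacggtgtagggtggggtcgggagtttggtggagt
Mcm5, chr8:75109259-75109508, plus strand: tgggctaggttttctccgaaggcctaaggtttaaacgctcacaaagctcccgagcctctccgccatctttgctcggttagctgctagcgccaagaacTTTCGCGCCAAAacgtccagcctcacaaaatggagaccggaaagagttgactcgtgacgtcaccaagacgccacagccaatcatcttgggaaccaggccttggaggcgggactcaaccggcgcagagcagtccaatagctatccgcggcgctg
The first bases of the matches lie 110, 106 and 47 bases before the start of Mcm6, 138 before that of Cdc6, and 153 and 149 before that of Mcm5. In Mcm6 the first 2 matches, and in Mcm5 both, overlap and stand on opposite strands, so that each such pair is printed as 1 run of capitals. Mcm6 had 99.1, 102 and 107.9 CPM in p53n and 553, 576 and 489 CPM in EZH2i (log2 fold changes of 2.39 and 2.54), and Mcm5 had 53.6, 51.1 and 57.4 against 740, 908 and 837 CPM (3.94 and 3.45). A match describes letters in these windows and does not show a bound site.

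Most mitotic genes were also higher, with exceptions. Of 27 listed G2 and M phase genes, 19 were higher in both fits and 1, Mki67, was lower in both; the plain fit called 5 lower, or 3 when EZH2i library 3 was left out. The median log2 fold change was 1.34 plain and 1.71 corrected, and for DMSO against p53n it was 1.90 and 1.96. Aurkb, a kinase of chromosome segregation, had 12.1, 11.5 and 13.7 CPM in p53n and 183, 172 and 173 CPM in EZH2i (3.82 and 3.22), and Cdk1, the mitotic kinase, had 42.9, 37.7 and 39.4 against 319, 258 and 312 CPM (2.89 and 2.98). Top2a, which untangles DNA, rose by 1.34 plain and 2.46 corrected. Mki67, the gene of the proliferation marker Ki-67, had 339, 309 and 336 CPM in p53n, 1225, 899 and 928 CPM in DMSO and 170, 150 and 160 CPM in EZH2i. It fell by 1.03 ± 0.10 plain and by 0.40 ± 0.10 corrected against p53n, in the direction opposite to the DMSO cells. The kinetochore genes Cenpe and Cenpf were lower in the plain fit, with −1.28 and −1.26, and did not pass the test in the corrected fit, with −0.12 and 0.21.

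Cyclins that start the cycle and inhibitors that stop it both changed. Ccnd1, the cyclin induced by growth factors, had 144, 145 and 141 CPM in p53n, 1555, 1653 and 1574 CPM in DMSO and 1683, 1621 and 1641 CPM in EZH2i (3.52 ± 0.07 plain, 3.19 ± 0.06 corrected). Ccnd2, Ccnd3, Cdk4 and Cdk6 were higher in both fits. Cdkn1c, which encodes the inhibitor p57, had 74.3, 68.0 and 72.3 CPM in p53n, 2.99, 2.49 and 2.87 CPM in DMSO and 6.46, 6.50 and 6.18 CPM in EZH2i. Its log2 fold change was −3.49 ± 0.10 plain and −4.49 ± 0.10 corrected. Cdkn1a, the p21 gene, rose by 2.48 and 1.79. Cdkn2a, the Ink4a/Arf locus and a known PRC2 target, rose by 1.24 in the plain fit and had 0.12 in the corrected fit, where it did not pass (edgeR's quasi-likelihood test, adjusted p = 0.11), or passed with 0.20 without EZH2i library 2. Of the 12 genes listed, 8 were higher and 1 was lower in both fits. Of 19 p53 target genes tested, 8 were higher and 7 lower in the plain fit, beside 40.3% and 41.7% of all genes. In the corrected fit 13 were higher and 6 lower, beside 38.6% and 39.8%. In both fits 8 were higher and 5 lower, beside 29.9% and 30.7%. The medians were −0.02 plain and 0.48 corrected.

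Genes that respond to growth factor signalling were mostly higher than in p53n under the inhibitor. Of 22 tested, 17 were higher and none lower in both fits, with medians of 2.19 plain and 1.73 corrected (1.99 and 1.86 in DMSO against p53n). Spry4, a feedback inhibitor of receptor tyrosine kinases, had 13.3, 12.4 and 11.9 CPM in p53n, 459, 437 and 458 CPM in DMSO and 485, 395 and 445 CPM in EZH2i, log2 fold changes of 5.14 ± 0.09 and 4.78 ± 0.09. Dusp6, the ERK phosphatase, rose by 4.42 and 4.20, and the ETS factor genes Etv4 and Etv5 rose by 2.71 to 3.61. Egr1, an immediate early gene, had 5.03, 4.79 and 4.08 CPM in p53n and 225, 115 and 103 CPM in EZH2i, where library 1 stood above the other two (4.99 and 4.27).

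Receptor levels went the other way. Pdgfra had 1583, 1488 and 1404 CPM in p53n, 957, 996 and 989 CPM in DMSO and 485, 556 and 500 CPM in EZH2i; the 3 groups did not overlap and the inhibited cells were lowest. Its log2 fold change was −1.54 ± 0.07 plain and −1.16 ± 0.06 corrected. Pdgfrb, the other receptor, was near the floor of detection, with 0.416, 1.12 and 0.547 CPM in p53n and 0.515, 0.0532 and 0 CPM in EZH2i, and the groups overlapped. Its plain log2 fold change of −1.69 passed the test (edgeR's quasi-likelihood test, adjusted p = 0.034), and it did not pass without p53n library 2 (−1.18), EZH2i library 2 (−1.28) or EZH2i library 3 (−1.12). Corrected, it had −2.23 and did not pass without p53n library 2 (−1.73). Pdgfa, which encodes the ligand in the medium, had 19.9 to 22.1 CPM in p53n and 19.8 to 24.3 CPM in EZH2i.

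**Figure D3:**
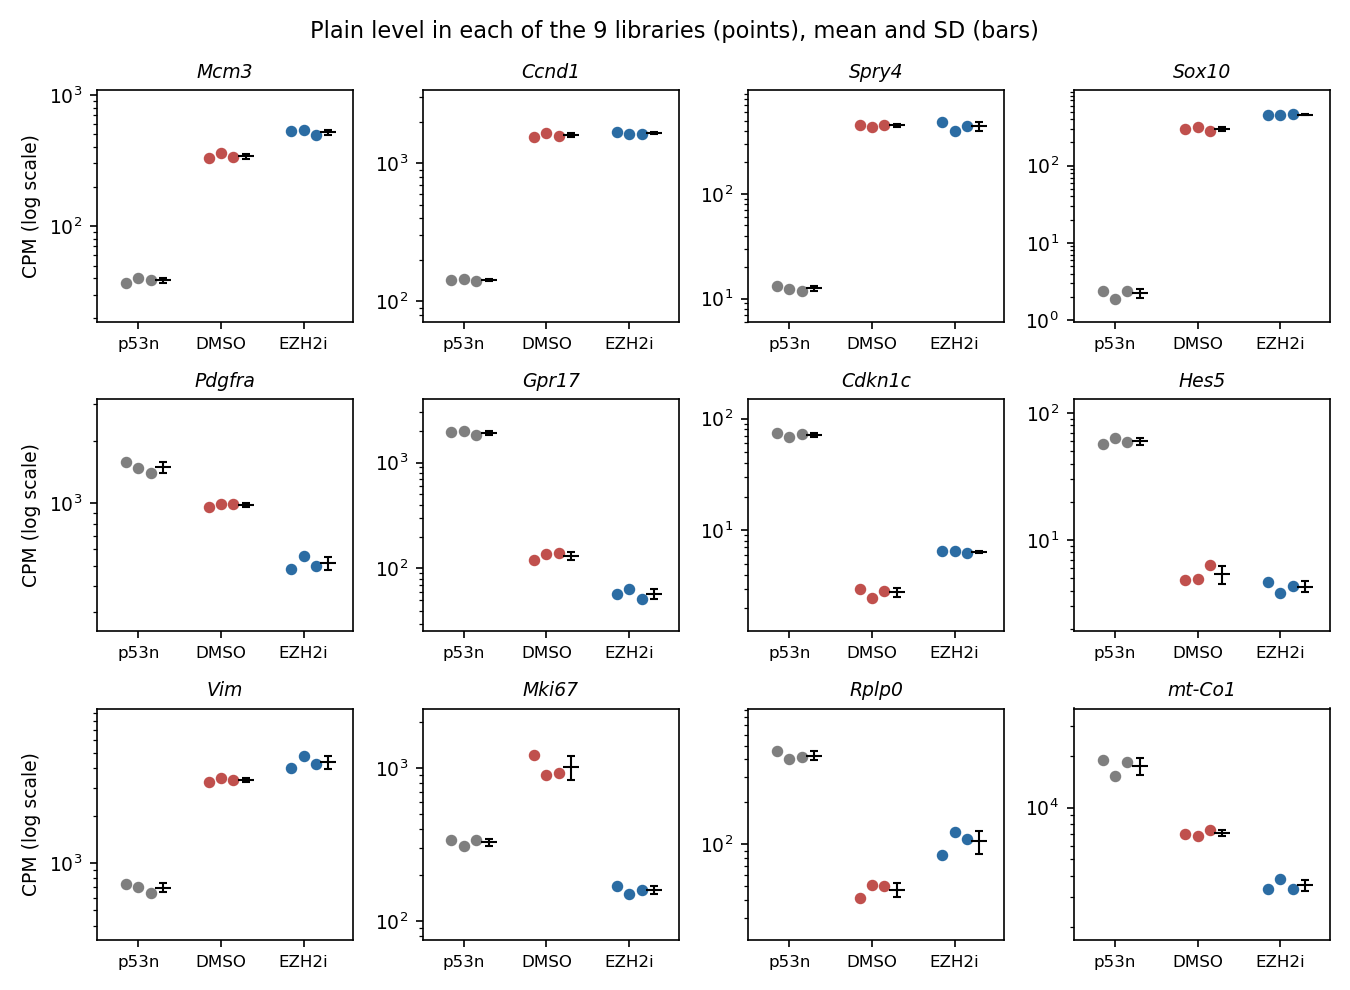
Level of 12 genes (CPM, log scale) in each of the 3 p53n (grey), 3 DMSO (red) and 3 EZH2i (blue) libraries, plain values, with the mean and SD of each group beside its points. EZH2i libraries sit beside the DMSO libraries for Ccnd1, Spry4 and Hes5, and below both other groups for Mki67 (150 to 170 CPM) and Pdgfra (485 to 556 CPM).

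In the plain fit the PRC2 subunit genes were higher and lower about as often as all genes (40.3% and 41.7%). In the corrected fit most were higher, beside 38.6% of all genes. Of 12 tested, 5 were higher and 5 lower plain, with a median of 0.07, and 9 were higher and 2 lower corrected, with a median of 0.78. Ezh2 had 116, 112 and 110 CPM in p53n, 171, 170 and 173 CPM in DMSO and 116, 113 and 107 CPM in EZH2i. Its plain log2 fold change for EZH2i against p53n was −0.01 ± 0.06 (edgeR's quasi-likelihood test, adjusted p = 0.85) and its corrected one 0.77 ± 0.06, so the reading of Ezh2 rests on the correction. Phf19, an accessory subunit, rose by 3.13 and 2.58, from 11.2 to 13.3 CPM in p53n to 101 to 109 CPM in EZH2i. Jarid2, a further accessory subunit, fell by 1.68 and 1.41. In both fits 5 were higher and 2 lower, beside 29.9% and 30.7% of all genes. The plain median fell below 0 (−0.02) with upper quartile scaling.

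Among developmental transcription factor genes, many of them known PRC2 targets, most that were measured were higher in EZH2i than in p53n. Outside the Hox clusters 51 of 64 listed genes passed the filter on low counts. Of these 34 were higher and 6 lower in both fits, with medians of 1.57 plain and 1.42 corrected. The DMSO cells, without the inhibitor, had medians of 1.395 plain and 1.231 corrected against p53n. For EZH2i against DMSO the medians were 0.13 and −0.25. Low genes could pass the filter through the group where they were high, so these counts cannot be set against the shares of all genes. Twist1, a mesodermal factor, had 0.0347, 0 and 0 CPM in p53n, 3.64, 4.86 and 4.04 CPM in DMSO and 4.99, 3.83 and 5.33 CPM in EZH2i, a count ratio of 365 (95% interval 65.1 to 1.45e+04). Tbx3 had a ratio of 104 (28.4 to 868) and Hand2, a cardiac and limb factor, one of 156 (42.6 to 1290). Gata6, an endoderm factor, rose by 4.13 and 3.63 and lay at 11.1 to 11.6 CPM in DMSO and 8.25 to 11.5 CPM in EZH2i.

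A few of these genes were near the floor in DMSO cells as well and had counts mainly under the inhibitor. Hoxb13, a posterior Hox gene on chromosome 11 (96085142 to 96088273, GRCm39), had no count in p53n, 0.0299, 0.0296 and 0.123 CPM in DMSO and 2.46, 2.93 and 2.66 CPM in EZH2i, at least 67.9-fold higher than p53n. Hoxd13 was at least 26.7-fold higher, Hoxc4 at least 15.3-fold and the cardiac factor gene Nkx2-5 at least 13.7-fold, each against a floor of 3 counts over the p53n libraries. The levels of these last 3 genes in DMSO were at most 0.0617 CPM. Of 39 listed Hox genes 13 were tested, with 9 higher and 1 lower in the plain fit and 6 higher and 4 lower in the corrected fit. In both fits 6 were higher and 1 lower, and the medians were 0.99 plain and 0.39 corrected. For EZH2i against DMSO the medians of the tested Hox genes were 0.60 plain and −0.11 corrected. Low Hox genes could also pass the filter through the group where they were high, so these counts and medians cannot be set against all genes.

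OPC markers differed from p53n in both directions, and most were lower. Sox10, the factor that drives oligodendrocyte genes (chromosome 15, 79039108 to 79049440, GRCm39), had 2.36, 1.87 and 2.40 CPM in p53n, 297, 317 and 284 CPM in DMSO and 452, 454 and 470 CPM in EZH2i. It rose by 7.69 ± 0.10 plain and 6.71 ± 0.09 corrected, and as a defining OPC marker it was close to absent in the libraries labelled p53n OPC. The other defining markers were present in p53n, among them Olig2 at 511 to 553 CPM and Cspg4, which encodes NG2, at 257 to 306 CPM. Of 20 tested OPC markers 8 were higher and 12 lower in the plain fit and 3 and 17 in the corrected fit, so that 5 turned direction. Higher in both fits were 3 (Sox10, Cspg5 and Cspg4) and lower in both 12, with medians of −1.20 plain and −0.80 corrected against −0.43 and −0.49 in DMSO. Gpr17, a receptor of cells committed to differentiate, had 1940, 1966 and 1806 CPM in p53n, 119, 137 and 139 CPM in DMSO and 57.8, 64.3 and 51.2 CPM in EZH2i (−5.04 ± 0.10, −5.54 ± 0.08). Tnr, the matrix protein tenascin-R, fell by 4.21 and 3.60 and Ptprz1, a receptor phosphatase, by 2.10 and 0.89. Olig2, which specifies the lineage, had 553, 539 and 511 CPM in p53n and 974, 801 and 908 CPM in EZH2i; it was higher in the plain fit (0.74) and lower in the corrected fit (−0.19), where it did not pass without p53n library 2 (−0.19), EZH2i library 2 (−0.10) or EZH2i library 3 (−0.16). In bulk RNA, fewer cells of a kind and less RNA per cell cannot be told apart.

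Myelin and differentiation genes were mostly lower than in p53n. Of 22 tested, 15 were lower and 3 (Cldn14, Rras2 and Trf) higher in both fits; the medians were −1.77 plain and −1.85 corrected, and −1.87 and −1.94 in DMSO against p53n. Enpp2, the autotaxin gene, had 555, 510 and 548 CPM in p53n and 25.4, 24.3 and 26.4 CPM in EZH2i (−4.41 and −3.77), and Bcas1, a gene of newly differentiating cells, had 1087 to 1134 against 282 to 314 CPM (−1.88 and −2.29). Myrf, the myelin regulatory factor, fell by 1.65 and 2.13. Trf, the transferrin gene, was the exception among them in its order of groups: it had 19.6, 15.2 and 13.9 CPM in p53n, 6.66, 6.10 and 7.49 CPM in DMSO and 30.4, 36.8 and 35.4 CPM in EZH2i, log2 fold changes of 1.07 and 0.49.

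Markers of other cell types were checked in the same way. Of 14 astrocyte markers 10 were lower and none higher in both fits. Aqp4, the astrocyte water channel, had 2.98, 5.12 and 5.26 CPM in p53n and no count in EZH2i, at least 94.5-fold lower, and Gfap, the intermediate filament of astrocytes, went from 8.71, 17.4 and 13.9 CPM to 0.793, 0.213 and 0.333 CPM (−4.80 and −5.47). Neuron markers went both ways: of 14 tested, 3 were higher and 6 lower in both fits, beside 29.9% and 30.7% of all genes. The corrected fit alone called 4 of them higher, or 2 without p53n library 2 or without EZH2i library 1. Values are given here only for neuron markers that fell. Dcx, a gene of migrating neuroblasts, fell by 2.99 and 1.18. Gad2, an enzyme of GABA synthesis, had no count in EZH2i and was at least 26.6-fold lower. Microglia markers summed to 19.3 to 21.1 CPM in p53n and 20.7 to 21.7 CPM in EZH2i, and 9 of the 12, Cx3cr1, Aif1 and Csf1r among them, were too low to test. Endothelial markers summed to 17.0 to 19.98 and 19.3 to 21.2 CPM over 8 genes, with Cldn5 and Cdh5 too low to test. Mural and fibroblast markers summed to 3.40 to 4.66 and 2.34 to 3.17 CPM over 12 genes, and 7 of them, Col1a2, Dcn and Lum among them, were too low to test. Of the 5 mural and fibroblast markers tested, 4 were lower in the plain fit, or 2 without p53n library 2, EZH2i library 2 or EZH2i library 3.

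Genes of Notch and BMP signalling were lower more often than higher. Hes5, a Notch target, had 56.7, 63.9 and 59.1 CPM in p53n, 4.81, 4.94 and 6.32 CPM in DMSO and 4.68, 3.83 and 4.38 CPM in EZH2i, log2 fold changes of −3.79 ± 0.12 and −4.93 ± 0.12. Id1, a BMP target, fell by 4.48 and 5.39, Id4 by 3.96 and 3.07, and the receptor gene Notch3 by 3.72 and 4.27. Of 19 tested, 10 were lower and 6 higher in both fits, beside 30.7% and 29.9% of all genes. The ligand gene Bmp7 rose by 3.12 and 2.43, from 18.6 to 21.9 CPM to 171 to 181 CPM.

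**Figure D4:**
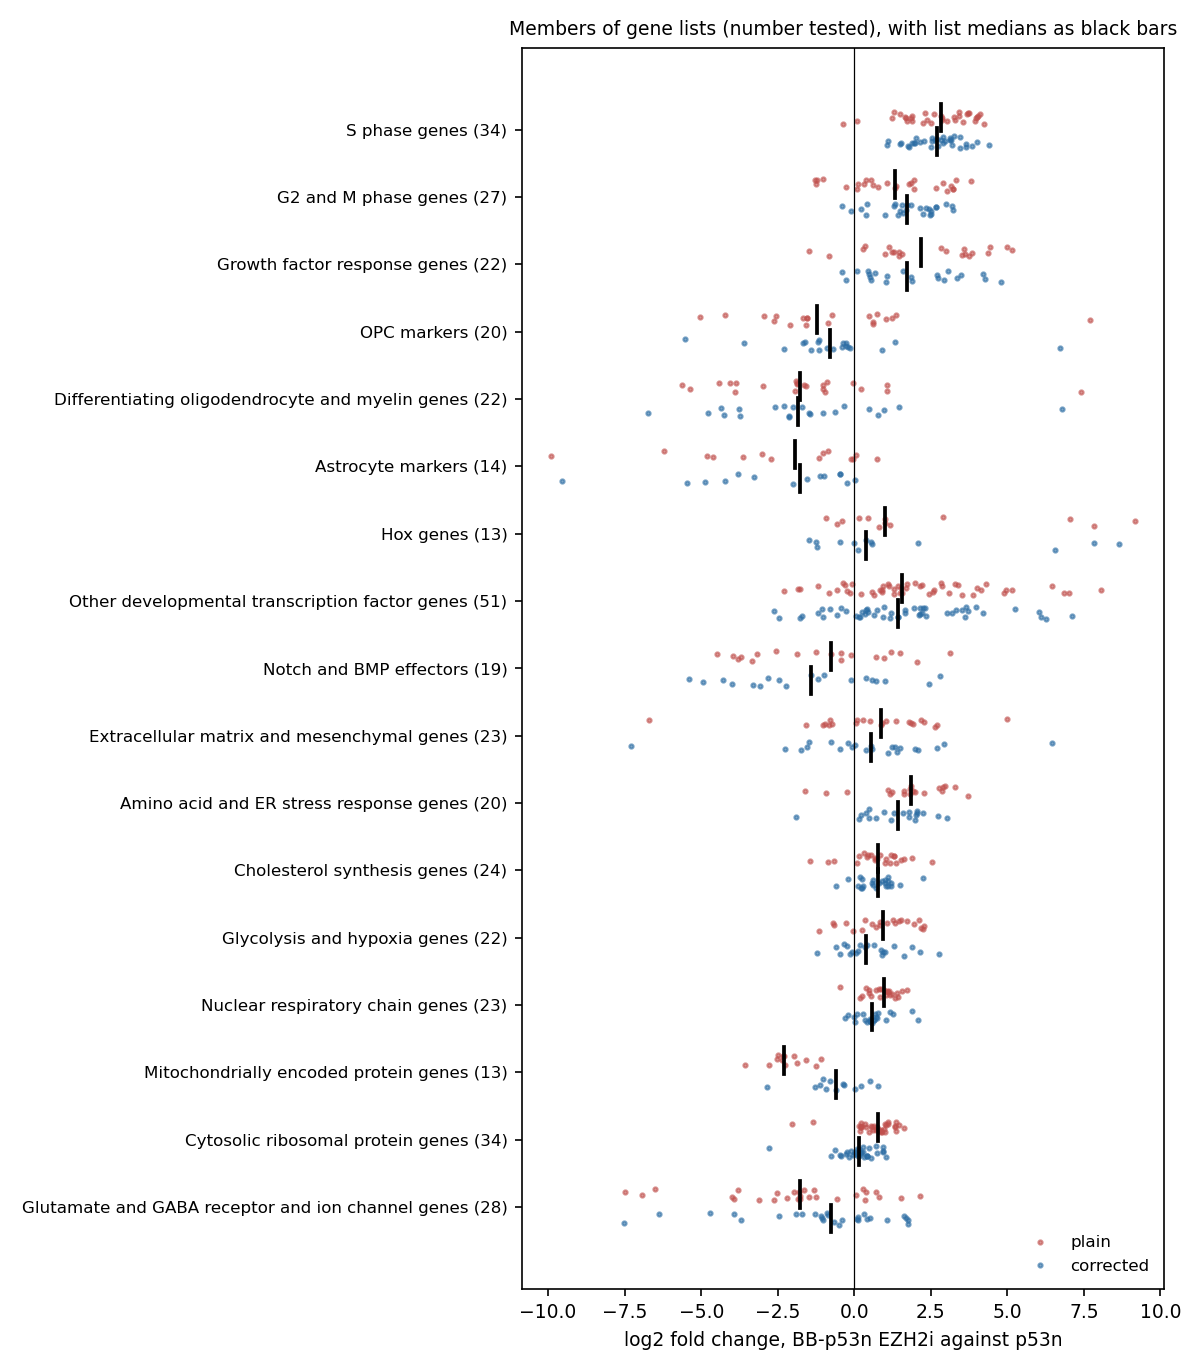
Log2 fold change of EZH2i against p53n for each tested member (point) of 17 gene lists, in the plain fit (red) and the corrected fit (blue), with the list median as a black bar and the number tested in brackets. S phase genes have medians of 2.85 and 2.71, and mitochondrially encoded genes move from −2.28 to −0.61 with the correction.

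Receptors and channels of neurotransmission, through which OPCs receive input from neurons, were lower in 17 of 28 tested genes and higher in 5 in both fits. Grm3, a metabotropic glutamate receptor, had 24.9, 26.2 and 26.5 CPM in p53n and 0.0396, 0.160 and 0.238 CPM in EZH2i (−7.50 ± 0.24, −7.52 ± 0.23). The GABA receptor subunit gene Gabrb1 fell by 6.50 and 4.73, and Kcnj10, the inward rectifier potassium channel Kir4.1, fell by 1.76 and 1.89. Grin1, the obligate NMDA receptor subunit, rose by 2.16 and 1.70. Among genes of lipid mediators and of the transsulfuration pathway, Pla2g7, a secreted phospholipase, had 81.6, 98.5 and 99.7 CPM in p53n and 0.119, 0 and 0.571 CPM in EZH2i (−8.63 ± 0.46, −8.75 ± 0.39). Cbs, the first enzyme of transsulfuration, fell by 6.75 and 6.76, and Cth, the next enzyme of that pathway, rose by 1.32 and 1.84. Prostaglandin synthase genes split: Ptgs2 fell by 7.33 and 5.99, whereas Ptgs1 rose by 7.08 and 6.84. Of the 14 tested, 7 were lower and 5 higher in both fits, beside 30.7% and 29.9% of all genes.

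Matrix and mesenchymal genes rose more often than they fell, 13 against 5 of 23 tested in both fits, beside 29.9% and 30.7% of all genes. The corrected fit called 13 higher and 7 lower, with a median of 0.54. A correction for GC content alone called 12 higher and 9 lower, with a median of 0.32. Vim, the intermediate filament vimentin, had 736, 705 and 646 CPM in p53n, 3266, 3437 and 3369 CPM in DMSO and 4008, 4780 and 4241 CPM in EZH2i (2.64 ± 0.08, 2.93 ± 0.07). Cd44, the hyaluronan receptor, rose by 1.92 and 2.69 and the basement membrane collagen gene Col4a1 by 1.78 and 1.24. S100a6 fell, with 2.08, 1.87 and 2.31 CPM in p53n and 0.0396, 0 and 0 CPM in EZH2i, a count ratio of 136 (95% interval 24 to 5397.5).

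Antigen presentation genes, which PRC2 can silence in tumour cells, went both ways. Of 15 tested, 7 were higher and 4 lower in the plain fit, and 5 and 5 in the corrected fit. In both fits 4 were higher and 4 lower, near the shares of all genes (29.9% and 30.7%). The genes given with values below all rose in the plain fit. H2-D1, a class I heavy chain, had 7.98, 7.95 and 7.78 CPM in p53n, 6.24, 5.12 and 5.67 CPM in DMSO and 26.2, 22.8 and 26.4 CPM in EZH2i (1.67 ± 0.11, 0.85 ± 0.11). Tap1, the peptide transporter, rose by 2.02 and 1.42, from 1.15 to 1.42 CPM to 4.90 to 5.43 CPM, and lay at 1.22 to 1.69 CPM in DMSO. The corrected fit alone called 5 genes lower, or 3 without p53n library 3, EZH2i library 1 or EZH2i library 2. H2-K1, the other class I heavy chain of the list, rose by 0.59 plain and had −0.14 corrected, where it did not pass.

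Genes of amino acid supply and the stress response were mostly higher. Of 20 tested, 17 were higher and 1 lower in both fits, with medians of 1.84 plain and 1.44 corrected, and 1.06 and 0.97 in DMSO. Asns, asparagine synthetase, had 97.3, 95.7 and 91.7 CPM in p53n, 221, 223 and 236 CPM in DMSO and 418, 506 and 472 CPM in EZH2i (2.29 ± 0.07, 2.24 ± 0.07). Mthfd2, a mitochondrial folate enzyme, rose by 3.30 and 3.03 and Trib3, a target of ATF4, by 3.70 and 2.75. Ddit4, an inhibitor of mTORC1, was the 1 that fell in both fits, by 0.93 and 1.91. Cholesterol genes were higher in 19 of 24 and lower in 1 in both fits. Hmgcs1, an early enzyme of the pathway, was the 1 that fell, by 1.46 and 0.60, and Srebf2, the transcription factor of the pathway, had 445, 458 and 406 CPM in p53n and 963, 1130 and 1092 CPM in EZH2i (1.28 and 0.71). Glycolysis genes, several of which have processed pseudogenes, were higher in 12 of 22 and lower in 1 in both fits. Ldha, lactate dehydrogenase A, had 87.8, 80.6 and 83.8 CPM in p53n and 317, 403 and 368 CPM in EZH2i (2.11 and 1.61), and Hk2, a hexokinase, rose by 2.23 and 1.90.

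The 2 genomes that encode the respiratory chain went in opposite directions in the plain fit. All 13 mitochondrially encoded genes were lower, with a median of −2.28, while 22 of 23 nuclear genes were higher, with a median of 0.97. After correction 8 of the 13 were lower and 1 was higher, with a median of −0.61, and 18 of the 23 were higher and 2 lower, with a median of 0.57. mt-Co1, a subunit of cytochrome oxidase, had 18966, 15328 and 18419 CPM in p53n, 7001, 6861 and 7409 CPM in DMSO and 3369, 3818 and 3367 CPM in EZH2i (−2.32 ± 0.09, −1.11 ± 0.13). The median GC content of the genes on the mitochondrial chromosome was 36.4%, within the lowest decile; a correction for GC content alone gave 4 of the 13 as higher, and one for length alone gave all 13 as lower. Of the nuclear genes, the ATP synthase subunit gene Atp5c1 rose by 1.72 and 1.25 and Ndufa4 by 0.81 and 1.89. In DMSO against p53n the nuclear genes had medians of 0.11 and 0.03.

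Cytosolic ribosomal protein genes have many processed pseudogenes, and whether reads were lost to or gained from these copies was not measured, so their values are uncertain. They were higher in 27 of 34 in the plain fit and in 18 in the corrected fit, or in 11 of those without p53n library 1 or without p53n library 2. The corrected fit called 6 lower, or 3 without p53n library 3. In both fits 16 were higher and 2 lower. Rplp0, the acidic stalk protein, fell, with 461, 401 and 415 CPM in p53n, 41.5, 50.9 and 50.1 CPM in DMSO and 83.6, 121 and 109 CPM in EZH2i. Its log2 fold changes were −2.03 ± 0.13 and −2.78 ± 0.09.

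Genes were also taken by their place among the 3 groups. Those that differed from p53n under the inhibitor while DMSO cells stayed within 0.3 of p53n on the log2 scale included Zc3hc1, a gene of nuclear envelope and cell cycle control, at 32.6 to 36.9 CPM in p53n, 39.9 to 42.5 CPM in DMSO and 84.5 to 106 CPM in EZH2i (1.42 and 2.01). Rack1, a ribosome-bound scaffold gene, lay at 626 to 716, 726 to 788 and 1517 to 1912 CPM (1.40 and 1.36), and the mitochondrial gluconeogenic enzyme gene Pck2 rose by 1.53 and 1.40. On the lower side, Golga4, a golgin gene, had 107 to 113, 99.3 to 115 and 27.3 to 33.4 CPM (−1.90 and −1.60), and the metalloprotease gene Adam9 had 196 to 209, 175 to 197 and 51.5 to 63.2 CPM (−1.82 and −1.60). The values that chose these genes are a description.

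Other genes changed in DMSO cells and lay at the p53n level under the inhibitor. Irs1, the insulin receptor substrate, had 14.2, 18.0 and 14.8 CPM in p53n, 41.7, 38.0 and 40.6 CPM in DMSO and 18.4, 14.2 and 17.7 CPM in EZH2i; its log2 fold change for EZH2i against p53n was 0.10 plain and 0.14 corrected, and the latter passed the test only without EZH2i library 2 (0.25). In the other direction, Tsc22d3, a glucocorticoid-induced gene, lay at 13.4 to 15.7, 5.64 to 6.84 and 13 to 16.3 CPM, log2 fold changes of 0.07 and 0.04. These genes were chosen for this pattern, so it carries no test.

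The rule for the strongest changes added genes outside the lists. Pou3f1, a POU factor of myelinating glia, had 1.74, 1.83 and 2.69 CPM in p53n, 136, 130 and 126 CPM in DMSO and 205, 187 and 208 CPM in EZH2i (6.59 and 5.63). Tmem173, which encodes the DNA-sensing adaptor STING, had 2.15, 2.66 and 2.48 CPM in p53n and 175, 209 and 211 CPM in EZH2i (6.35 and 5.85). Clic5, an intracellular chloride channel gene, rose by 5.95 and 6.71. Mfap2, a microfibril protein gene, fell by 6.91 and 7.98, and Itih3, which encodes a hyaluronan-associated heavy chain, by 7.11 and 7.56. The rule took only genes without overlap between the groups, so the lack of overlap in these 5 genes was set by the choice.

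Chromosomes differed in their median change. Chromosome 11 was the most shifted upward of the autosomes, with a median log2 fold change of 0.75 plain and 0.40 corrected over 1038 genes with an average log2 CPM above 1, and 0.45 in DMSO against p53n. Chromosome 14 was the most shifted downward, with −0.48 and −0.33 over 424 genes and −0.40 in DMSO. Hoxb13 and Cdc6 are among the reported genes that lie on chromosome 11. The part of the chromosome's shift in the values of any such gene was not tested. Genes of the X chromosome had medians of −0.47 and −0.12 over 464 genes.

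**Figure D5:**
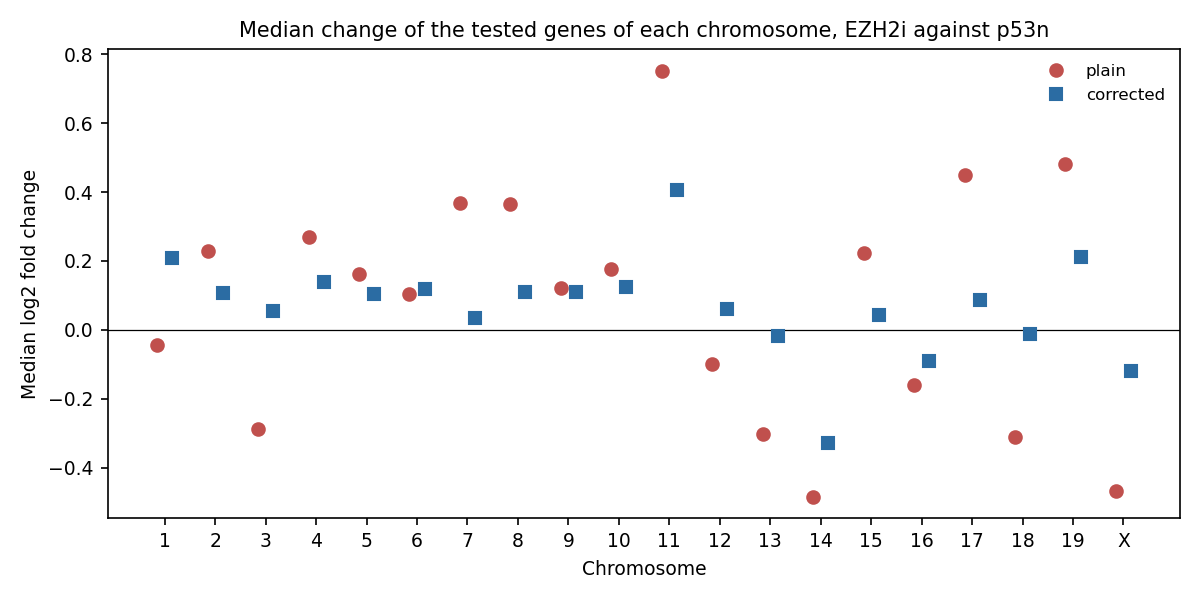
Median log2 fold change of EZH2i against p53n over the tested genes of each autosome and the X chromosome, in the plain fit (circles) and the corrected fit (squares). Chromosome 11 (0.75 and 0.40) and chromosome 14 (−0.48 and −0.33) are the outermost autosomes in both fits.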

How the data were processed

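Polyadenylated RNA of 9 mouse OPC libraries in 3 groups of 3 was sequenced as 150 bp pairs. The authors deposited raw counts of fragments per gene; per the file headers featureCounts 1.6.3 counted pairs in exons of Ensembl release 108 (GRCm39) if both ends had mapped with a quality of 20 or more. No strand option was set, so reads where a gene overlaps one on the other strand were not separated by strand. Whether such reads counted for both genes or for neither is not given here. The submitters' processing notes also name Trimmomatic and Subread. Symbols, biotypes and GC content came from GENCODE M21 by gene identifier (52073 of 56980 matched; 68 duplicated symbols were dropped); coordinates are those of the deposited table. No batch is named.

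In edgeR 4.0.16 (R 4.3.3), filterByExpr removed low genes and TMM scaled the libraries. A robust quasi-likelihood fit used all 9 libraries with group as its term, and p-values were adjusted by Benjamini-Hochberg over all genes. For corrected values, each library's deviation in log2 CPM from the mean of all 9 libraries was fitted with natural splines of 5 degrees of freedom. The splines were on GC content and on log2 exon length, over genes with an average log2 CPM above 1. The fitted trend was entered as an offset, and 349 genes without GC content were left out. The common biological coefficient of variation was 0.0815 plain and 0.0656 corrected. A level of 3 counts is 0.0868 to 0.154 CPM in a library; intervals and floors cover counting error only. The libraries of a group differed by more than sampling noise, so none was treated as a repeat. The fit was tested on simulated data.

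The comparison, its gene lists and the rule for named genes were chosen with earlier results of these data known. The rule took the manipulated genes and PDGF receptors, key members of each list, the members of each list changed most in both fits, the 8 genes most changed each way in both fits without overlap between the groups, genes at the p53n level in 1 of the PDGF-BB groups but not in the other, and genes whose direction the correction turned. Listed genes printed outside it (for example the members called higher among OPC and myelin genes, or cell type markers too low to test) were chosen after their values were seen. Alternatives were other scalings, DESeq2 1.42.0, other filters, other corrections, a replicate block and leaving out each library.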

Additional observations from a re-analysis of the deposited data

How the results depend on the processing

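Depth limits genes near 3 counts in a library, such as Pdgfb, Pdgfrb and the Hox genes. Counts of genes higher and lower (6857 and 7082) stayed within 1.5 times under other scalings, DESeq2, the removal of chromosomes X, Y and MT and the 6 libraries fitted alone, except that a filter of at least 10 CPM in 3 libraries, which tested 10705 genes, called 4712 lower. Under that filter the shift of chromosome 14 against the other autosomes was −0.731 (−0.661 before), and rho with exon length was −0.388. Leaving out each library in turn moved that rho between −0.335 and −0.314. The plain counts of genes higher ranged from 6753 to 6952 and of genes lower from 6925 to 7379 over these 6 runs. In runs with 2 libraries in a group the spread is estimated over all groups.

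The replicate numbers of the labels do not pair the groups: same-numbered libraries had correlations of −0.217, 0.058 and −0.029 in their deviations. With a replicate block 6800 genes were higher and 7054 lower, and with the block and the trend removed 6368 and 6562.

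Removing the GC and length trend reversed named genes as the report gives them: Jund to −0.68, Olig2 to −0.19 and Tpp2 to 1.21, and with the replicate block added to −0.69, −0.20 and 1.21; Cenpf came to 0.20 with both. A correction for length alone, which leaves the trend on GC content in place, gave 0.36 for Olig2, −0.65 for Tpp2 and −0.60 for Ccne2, each opposite to the corrected value. The cause was not tested beyond what each correction takes out. Over all alternatives, named genes kept their direction and their side of the threshold in 1667 plain and 1060 corrected values; 11 and 8 lost the call, and 17 and 9 gained it.

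List counts moved by over 1.5 times where fewer members were tested under the filter of 10 CPM: 3 of 4 Hox genes higher in place of 9 of 13, 13 of 20 developmental factor genes in place of 39 of 51, 2 myelin genes in place of 4, 3 neuron markers in place of 6, 4 channel genes in place of 7, and for antigen presentation 4 higher and 1 lower in place of 7 and 4. With the correction for length alone 7 OPC markers were higher in place of 3, 3 myelin genes higher in place of 5 and 13 mitochondrially encoded genes lower in place of 8. With that for GC content alone 4 mitochondrially encoded genes were higher in place of 1, and 2 ribosomal protein genes lower in place of 6.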

Other observations

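Intergenic non-coding and antisense transcripts were lower than in p53n more often than higher. Of 435 long intergenic non-coding RNA genes tested, 76 were higher and 254 lower in EZH2i than in p53n in the plain fit, with median log2 fold changes of −1.27 plain and −0.99 corrected. The 575 genes annotated as antisense had 69 higher and 332 lower, with medians of −1.25 and −1.46; the counting used no strand, so reads of these genes cannot be told from those of their overlapping partners. Protein-coding genes had medians of 0.08 and 0.07 over 13506 genes. In DMSO against p53n the plain medians were −0.73 for the intergenic and −0.75 for the antisense genes, and 0.05 for the protein-coding genes. Fewer genes had counts in the EZH2i libraries than in the p53n libraries, and the part of this and of depth in these medians was not tested.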
